A study of Danio rerio with 6 samples.

Results

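The genes described here are 7 epithelial adhesion, desmosome and keratin genes of zebrafish: epcam, pkp3a, jupa, krt4, krt5, krt8 and krt18b. They were taken as every probe set whose platform gene symbol is one of these names, which gave 8 probe sets of the 15502 tested and 7 genes of 8793 measured. The set was chosen by the log2 differences between the 2 tumour types on these same arrays, so the differences are given as a description, with no test of their own. Expression was measured in 6 zebrafish tumours, each on its own Affymetrix array. In the first group, SRBCT (small round blue cell tumour), 3 tumours came from fish with the genotype Tg(HSP:EWS-FLI1); p53M214K/M214K, in which a heat shock promoter drives the human fusion oncoprotein EWS-FLI1. In the second, MPNST (malignant peripheral nerve sheath tumour), 3 tumours came from p53M214K/M214K fish whose label names no transgene. All 6 fish thus share the homozygous p53 mutation M214K, and the labels give no ages. The transgene reached the fish as a transposon injected into embryos, so its insertions are somatic, and the promoter is not restricted to a cell type. The series asks what sets the transgene-driven tumours apart from another tumour of the same genetic background. Nothing in the labels says whether tumours were dissected free of skin or other organs.

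Epithelial cells hold their shape and their neighbours through keratin filaments that end in desmosomes. A keratin filament is built from pairs of a type I and a type II keratin. In mammals, Krt8 (type II) and Krt18 (type I) are the usual pair of simple, single-layered epithelia. Krt5 is there the type II keratin of the basal layer of stratified skin. In zebrafish krt4 is known for its strong expression in the outer skin layer. Whether the mammalian split of simple and skin keratins holds in these fish was not tested. In the desmosome, cadherins of neighbouring cells meet outside the membrane, plakoglobin and the plakophilins bind their tails inside, and desmoplakin ties this plaque to keratin. EpCAM is a surface glycoprotein of many epithelia that acts in adhesion. Sarcomas and nerve sheath tumours are classed as mesenchymal or neural crest derived, and keratins are commonly stained in such tumours to see whether a sample has epithelial features.

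Values are log2 expression values, 1 per probe set and array, and differences are SRBCT minus MPNST on that log2 scale. Precision is limited by the 3 arrays of each group. Array 3 of the SRBCT group stood apart from the other 2: it correlated across probe sets at 0.892 and 0.864 with them, but at 0.875 to 0.916 with the MPNST arrays, while MPNST arrays correlated with each other at 0.938 to 0.968. The neural crest and glia regulator sox10 was between 10.34 and 11.01 on the SRBCT arrays and between 10.45 and 10.75 on the MPNST arrays. nkx2.2a, whose human ortholog is a known EWS-FLI1 target, read 10.76, 9.58 and 4.18 across the SRBCT arrays, against 3.48 to 3.86 on the MPNST arrays, so SRBCT 3 was near the MPNST level. For GAPDH, a control of RNA integrity, the 3' signal exceeded the 5' signal by 0.41 to 0.84 in SRBCT and 1.04 to 1.1 in MPNST. The gap was larger on every MPNST array, so it cannot be told apart from tumour type. The acta1 control went otherwise. Its 3' probe set read 7.97, 7.36 and 5.79 on the SRBCT arrays and 5.46 to 5.77 on the MPNST arrays. A 5' probe set of acta1 read 6.69, 6.22 and 6.0 on the SRBCT arrays and 6.37 to 6.46 on the MPNST arrays. The human transgene has no probe set among those named here.

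The bright probe set annotated as the adhesion gene epcam was lower in every SRBCT. It read 6.81, 7.87 and 6.72 on SRBCT 1, 2 and 3, against 10.78, 9.88 and 9.99 on MPNST 1, 2 and 3. The groups did not overlap. Means were 7.13 ± 0.64 in SRBCT and 10.22 ± 0.49 in MPNST (SD, n = 3 each), a log2 difference of -3.08 (SE 0.41), or 8.48-fold lower in SRBCT. In bulk tissue, fewer cells of a type and less RNA per cell cannot be told apart, here and in all that follows. The other epcam probe set was dim, at 2.84, 2.53 and 2.49 on the SRBCT arrays against 2.96, 2.88 and 2.99 on the MPNST arrays. Its groups did not overlap either, but its difference was only -0.32 (SE 0.18). The name of the bright probe set carries the same sequence cluster number as those of probe sets for icn, icn2, cd81a, dnaja2a and pcp4a. Of these, icn was at 9.91, 10.38 and 12.61 on the SRBCT arrays against 12.26, 11.66 and 12.21 on the MPNST arrays, so it did not share the low epcam value on SRBCT 3. A probe set whose name differs from the bright one only in its ending, with no gene symbol here, was at 4.48, 3.03 and 3.42 on the SRBCT arrays against 3.04, 2.96 and 3.1 on the MPNST arrays. The epcam difference thus rests on 1 probe set, whose gene name comes from the platform annotation and was not checked against probe sequences here.

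The desmosomal plaque gene pkp3a, which encodes plakophilin 3, differed the other way. It read 5.51, 6.25 and 5.88 on the SRBCT arrays, against 3.87, 3.42 and 3.15 on the MPNST arrays. All SRBCT values lay above all MPNST values, and the means were 5.88 ± 0.37 and 3.48 ± 0.36 (SD, n = 3 each). The log2 difference was 2.40 (SE 0.29), or 5.28-fold higher in SRBCT. pkp3a was a dim to middling signal, since the median over all tested probe sets of their mean levels was 5.57. RMA, the authors' normalization, draws dim values together, so a difference that starts from a dim level may be understated. Whether this holds for pkp3a was not measured here.

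**Figure D1:**
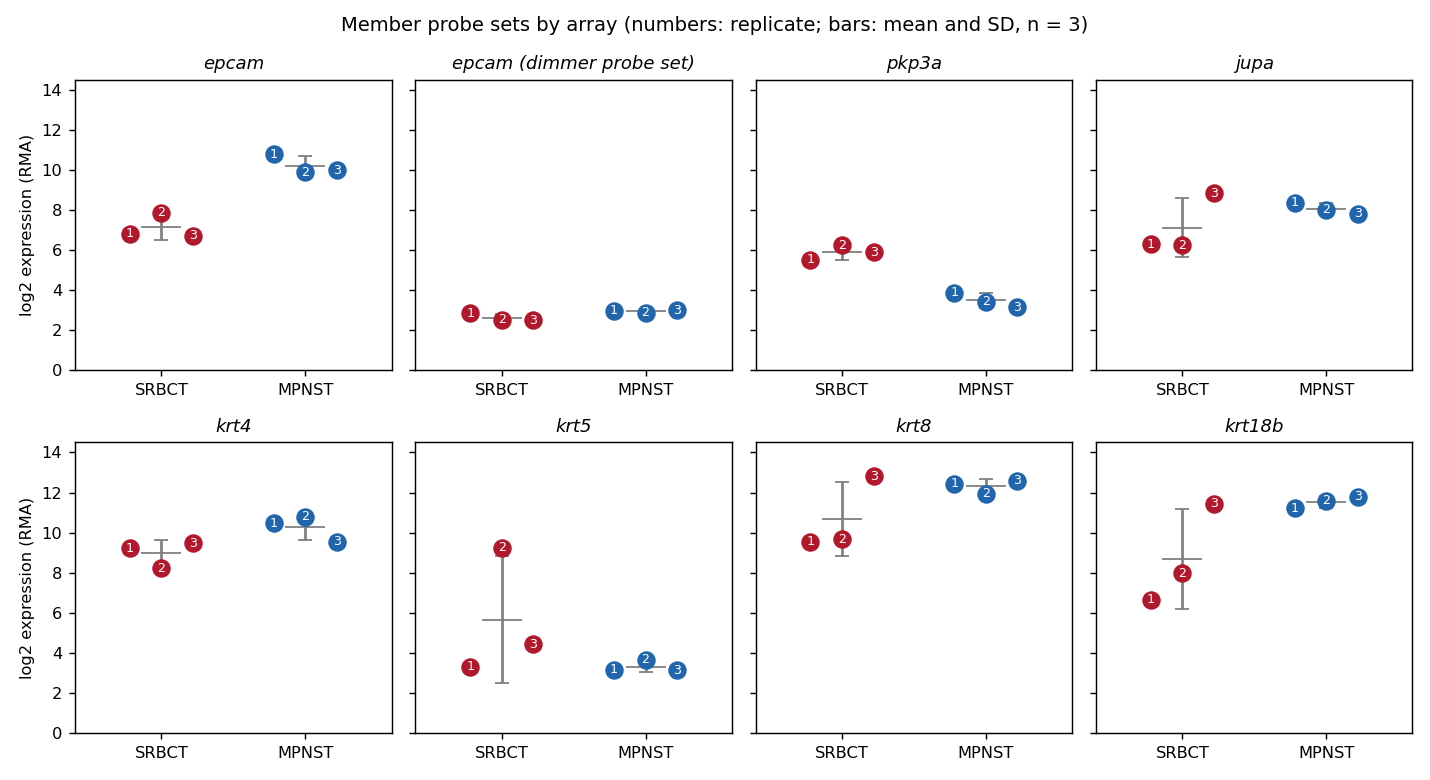
Log2 expression (vertical axis) of the 8 member probe sets, with SRBCT arrays on the left (red) and MPNST arrays on the right (blue) in each panel. Points carry the replicate number, and grey bars give the mean and SD of 3 arrays. epcam and pkp3a separate the groups in opposite directions, SRBCT 3 sits with the MPNST arrays for jupa, krt8 and krt18b, and krt5 is high on SRBCT 2 alone.

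In limma's fit across all probe sets, epcam and pkp3a were 2 of the 7 member genes past an adjusted p of 0.05, 1 in each direction, where 0.903% of all 15502 probe sets passed (0.0903% higher and 0.813% lower in SRBCT). Of the 8 member probe sets 4 had groups that did not overlap (both of epcam, pkp3a and krt4), against 22.6% of all probe sets. Because the genes were chosen with this comparison known, nothing is read from these counts.

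The simple-epithelial keratins divided the SRBCT tumours. krt8 read 9.55, 9.66 and 12.82 across SRBCT 1 to 3, against 12.44, 11.93 and 12.58 on the MPNST arrays. SRBCT 3 was thus the highest of all 6 arrays, and the other SRBCT arrays lay over 2 units below every MPNST array. The group means were 10.68 ± 1.86 in SRBCT and 12.32 ± 0.34 in MPNST (SD, n = 3 each), a difference of -1.64 (SE 0.89). krt18b, the type I partner, was at 6.65, 7.96 and 11.44 on SRBCT 1, 2 and 3, against 11.22, 11.58 and 11.78 on the MPNST arrays. For krt18b SRBCT 3 fell inside the MPNST range, while the other 2 SRBCT tumours were far below it. The means were 8.68 ± 2.48 and 11.53 ± 0.28 (SD, n = 3 each), a difference of -2.84 (SE 1.17). Both keratins were bright in MPNST: for comparison, 10% of all probe sets had a mean level over the 6 arrays above 8.53. krt18a.1, another Krt18 gene, named after its values were seen, was at 9.08, 8.56 and 12.09 on the SRBCT arrays against 10.67, 9.80 and 11.10 on the MPNST arrays. SRBCT 3 was again the highest SRBCT array. The lowest was SRBCT 2 for krt18a.1, but SRBCT 1 for krt8 and krt18b.

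jupa, the plakoglobin gene, followed the simple keratins and not the plakophilin gene. It read 6.28, 6.23 and 8.83 across SRBCT 1 to 3, against 8.37, 8.0 and 7.81 on the MPNST arrays. Its probe set is named as one that may match several transcripts. The means of 7.11 ± 1.49 in SRBCT and 8.06 ± 0.28 in MPNST (SD, n = 3 each) gave a difference of -0.95 (SE 0.72), smaller than the SD within SRBCT. Over the 6 arrays jupa correlated with krt8 at 0.964 and with krt18b at 0.907, and krt8 with krt18b at 0.963. These correlations share the same 6 arrays and mostly restate which arrays are low. pkp3a correlated with epcam at -0.870 and with jupa at -0.437. With 6 arrays, and genes chosen by their group differences, nothing is read from this about how the 2 desmosomal plaque genes vary together.

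Among the skin keratins, krt4 was moderately lower in SRBCT and krt5 was high in a single tumour. krt4 read 9.23, 8.22 and 9.47 on the SRBCT arrays, against 10.47, 10.78 and 9.55 on the MPNST arrays. The groups did not overlap, but SRBCT 3 and MPNST 3 were only 0.08 apart. The means were 8.97 ± 0.66 and 10.27 ± 0.64 (SD, n = 3 each), a difference of -1.29 (SE 0.46). The RefSeq gene table lists krt8 among the older names of krt4, so the names of these 2 genes can be confused in older annotation. krt5 was at 9.24 on SRBCT 2, but at 3.30 and 4.42 on SRBCT 1 and 3, against 3.16, 3.64 and 3.12 on the MPNST arrays. SRBCT 1 lay within the MPNST range, and the group difference of 2.35 (SE 1.48) came from SRBCT 2. Without that array it was 0.55.

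Set beside each other, the simple and the skin keratins did not form 2 opposed blocks. On SRBCT 1, krt8 and krt18b were 1.95 and 3.46 log2 units below their own 6-array means, and krt4 and krt5 were 0.39 and 1.18 below theirs. On SRBCT 2, krt8 and krt18b were 1.84 and 2.15 below, krt4 was 1.40 below, and krt5 was 4.76 above. On SRBCT 3, krt8 and krt18b were 1.32 and 1.34 above their means, while krt4 and krt5 were 0.15 and 0.06 below theirs. The 3 SRBCT tumours thus differed from each other in these 4 keratins. The MPNST tumours were more alike, with SDs of 0.28 to 0.34 for krt5, krt8 and krt18b and of 0.64 for krt4.

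Neighbouring keratin genes did not always share a pattern. In the RefSeq gene order of the GRCz12tu assembly, krt5 and krt8 are direct neighbours on chromosome 23, followed by krt18a.1, yet krt5 was high on SRBCT 2 where krt8 and krt18a.1 were low. krt4 and krt18b lie on chromosome 6 with 1 gene between them, and their differences were -1.29 and -2.84. jupa, on chromosome 11, has 5 keratin genes within 15 genes of it, among them krt15 and krt94. epcam and pkp3a, on chromosomes 13 and 25, have none.

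**Figure D2:**
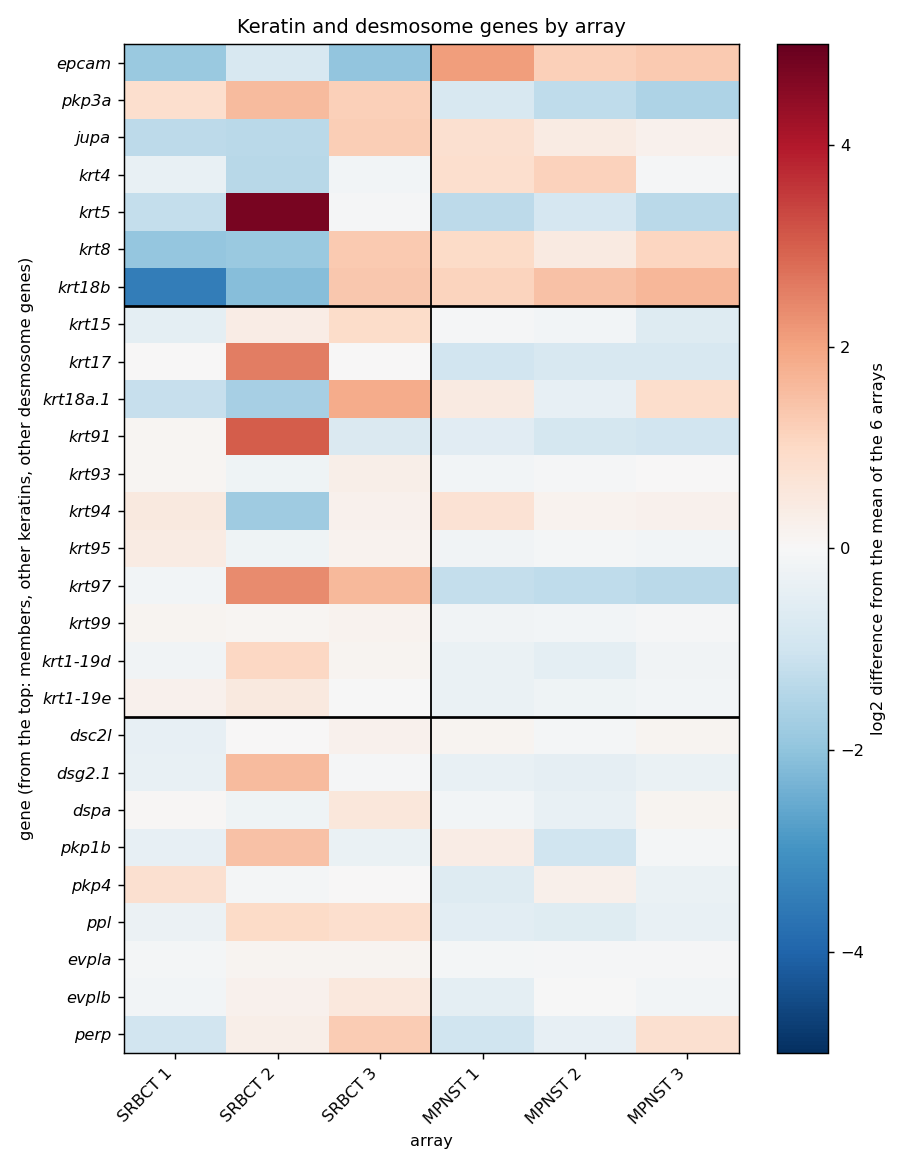
Log2 difference of each array (columns, SRBCT left of MPNST) from the gene's mean over the 6 arrays, for the 7 members (top block), 11 other keratins (middle) and 9 other desmosome genes (bottom). SRBCT 2 is the only array with krt5, krt17 and krt91 far above their means, at 4.76, 2.57 and 3.03, and jupa, krt8, krt18b and krt18a.1 are low on SRBCT 1 and 2.

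Other keratin genes, from a list written from general knowledge, gave no call. Of 19 listed 11 were measured, and none passed limma's adjusted p over all probe sets, while krt17 and krt97 were higher at an unadjusted p under 0.05. Of all probe sets 0.903% passed and 15.2% had such an unadjusted p, the shares to set beside this list and those below. The median difference of the 11 keratins was 0.47, against 0.07 over all 8793 genes, and 9 of the 11 were above 0. For 5 of the 11 the groups did not overlap, all higher in SRBCT, against 13.2% of all probe sets in that direction. krt97, the member of the list with the smallest p, was at 4.48, 6.99 and 6.27 on the SRBCT arrays against 3.43, 3.35 and 3.27 on the MPNST arrays (difference 2.56, SE 0.62, limma adjusted p 0.163). Its groups did not overlap, and in the fit without SRBCT 1 it passed, where 0.168% of probe sets did. krt17 was at 3.60, 6.17 and 3.62 on the SRBCT arrays against 2.63, 2.78 and 2.79 on the MPNST arrays (difference 1.73, SE 0.70, limma adjusted p 0.326). krt91, named after its values were seen, was at 7.78, 10.70 and 6.96 on the SRBCT arrays against 7.11, 6.78 and 6.72 on the MPNST arrays. As for krt5, SRBCT 2 was the highest array for all 3 of these keratins. The krt91 probe set is named as one that may also match other sequences. 7 of the 11 had mean levels below the median of all probe sets.

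Other genes of the desmosome gave no call. None of 9 measured of 16 listed passed limma's adjusted p, and 1 (ppl) had an unadjusted p under 0.05. Of the 9 differences 8 were above 0, with a median of 0.41, against 0.07 over all genes, and a range of -0.12 to 1.0. ppl, the gene of periplakin, a plakin that links desmosomes to filaments, was at 3.20, 4.46 and 4.36 on the SRBCT arrays against 2.97, 2.89 and 3.15 on the MPNST arrays (difference 1.0, SE 0.37, limma adjusted p 0.296). evplb, an envoplakin gene, differed by 0.41 (SE 0.24, limma adjusted p 0.462). The desmosomal cadherin genes dsc2l and dsg2.1 and the desmoplakin gene dspa, named after their values were seen, had differences of -0.12, 0.76 and 0.26. dsg2.1 was at 5.99 on SRBCT 2, while the 5 other arrays were between 3.98 and 4.37. Of these 9 genes 7 were dim, with mean levels below the median of all probe sets, so small differences among them are poorly resolved. Beside the high pkp3a on all 3 SRBCT arrays, no other plaque, cadherin or plakin gene measured here passed, and whether pkp3a differs from those genes was not tested.

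Adherens and tight junction genes, which join epithelial cells beside the desmosomes, did not pass as single genes. Of 19 measured of 34 listed none passed limma's adjusted p, and 3 were higher and 3 lower at an unadjusted p under 0.05. The median difference was -0.04. cldn3c, a claudin gene with the smallest p of the list, was at 5.11, 5.12 and 6.05 on the SRBCT arrays against 4.36, 4.05 and 3.63 on the MPNST arrays (difference 1.41, SE 0.34, limma adjusted p 0.163). ctnna1, the gene of alpha-catenin, was at 7.27, 7.67 and 8.0 on the SRBCT arrays against 8.59, 8.51 and 8.68 on the MPNST arrays (difference -0.95, SE 0.24, limma adjusted p 0.172). Its groups did not overlap. The claudin gene cldn15la, named after its values were seen, had the largest difference of the list, at 7.72, 3.81 and 8.08 on the SRBCT arrays against 3.47, 3.63 and 4.07 on the MPNST arrays (difference 2.81, SE 1.12, limma adjusted p 0.318). SRBCT 2 lay within the MPNST range, and without that array cldn15la passed (limma adjusted p 0.0109), where 0.703% of all probe sets did. cdh1, the E-cadherin gene, named after its values were seen, was at 6.18, 6.42 and 7.68 on the SRBCT arrays against 8.25, 6.26 and 8.80 on the MPNST arrays, so the groups overlapped.

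Surface proteins and proteases that act beside EpCAM, 8 measured of 13 listed, had no call and 2 lower members at an unadjusted p under 0.05. cd9b, a tetraspanin gene, was at 8.85, 8.09 and 10.81 on the SRBCT arrays against 12.52, 11.72 and 11.39 on the MPNST arrays (difference -2.63, SE 0.72, limma adjusted p 0.209). cldn7b, a gene of claudin 7, which in mammals binds EpCAM, was at 4.08, 5.77 and 4.17 on the SRBCT arrays against 8.53, 6.02 and 5.82 on the MPNST arrays (difference -2.12, SE 0.84, limma adjusted p 0.318). The groups did not overlap for these 2 of the 8 genes, both lower in SRBCT, against 9.34% of all probe sets. MPNST 1 was the highest array for both, as for epcam. Without MPNST 1 the differences of cd9b and cldn7b were -2.3 and -1.25. The junction genes oclna, f11r.1 and lsr, named after their values were seen, were also highest on MPNST 1, at 8.64, 8.99 and 5.41. Other junction genes were not: cdh1 and ctnna1 were highest on MPNST 3 and cldn3c on SRBCT 3. On MPNST 1, 5 of the 19 adherens and tight junction genes lay over 1 unit above their own 6-array means. The median of the 19 deviations there was -0.035. For the 8 surface protein and protease genes the median difference was -0.17, and 3 of the 8 differences were above 0.

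Anchors to the basement membrane and regulators of epithelial identity showed no call. Of 5 hemidesmosome and basement membrane genes measured of 13 listed none passed limma's adjusted p, and none had an unadjusted p under 0.05. The values were 0.82 (SE 0.39, limma adjusted p 0.386) for the laminin gene lama5 and -0.58 (SE 0.29, limma adjusted p 0.395) for the plectin gene plecb. Of 12 regulators measured of 20 listed none passed, and 1 had an unadjusted p under 0.05: esrp1, a splicing factor of epithelial cells, at 4.08, 4.39 and 4.37 on the SRBCT arrays against 3.71, 3.56 and 3.85 on the MPNST arrays (difference 0.57, SE 0.19, limma adjusted p 0.274). elf3, an epithelial ETS factor gene, differed by 0.83 (SE 0.38, limma adjusted p 0.363). tp63, the master regulator of stratified epidermis, was also named after its values were seen. It was between 5.56 and 6.0 on the SRBCT arrays and between 5.59 and 5.63 on the MPNST arrays. On SRBCT 2, where krt5 was high, tp63 was thus not higher. Its SD in MPNST was only 0.02, so a steady level cannot be told apart from a probe set that does not respond.

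Genes on the mesenchymal side gave the single call among the companion genes. Of 16 measured of 19 listed, fn1b, a fibronectin gene, fell, at 5.0, 5.26 and 4.65 on the SRBCT arrays against 7.79, 7.77 and 6.92 on the MPNST arrays (difference -2.52, SE 0.31, limma adjusted p 0.0303). That call was lost without SRBCT 1 (limma adjusted p 0.155), SRBCT 2 (0.0666), MPNST 1 (0.087) or MPNST 2 (0.136), and was kept without SRBCT 3 or MPNST 3. The other 15 did not pass, and the list's median difference was -0.12. snai1a, a repressor of epithelial cadherin genes, named after its values were seen, was at 3.74, 5.05 and 9.18 on the SRBCT arrays against 9.92, 9.74 and 9.05 on the MPNST arrays. SRBCT 1 and 2 were thus low for snai1a and for krt8, krt18b and jupa at once. SRBCT 3 was within the MPNST range for snai1a and krt18b and above it for krt8 and jupa. The E-box repressor gene zeb2a, also named after its values were seen, ran the other way, at 11.04, 10.59 and 9.65 on the SRBCT arrays against 8.96, 9.14 and 9.56 on the MPNST arrays. Intermediate filament genes other than keratins, 13 measured of 20 listed, gave no call and 1 unadjusted p under 0.05 (median difference 0.35). That gene, the lamin gene lmnl3, whose counterpart in Xenopus is an oocyte lamin, was at 5.88, 5.66 and 5.85 on the SRBCT arrays against 7.58, 6.67 and 6.41 on the MPNST arrays (difference -1.09, SE 0.33, limma adjusted p 0.238). bfsp2, a lens filament gene, differed by 0.46 (SE 0.21, limma adjusted p 0.361). vim, the gene of vimentin, the filament of mesenchymal cells, named after its values were seen, was at 9.49, 6.72 and 9.52 on the SRBCT arrays against 6.42, 9.81 and 9.70 on the MPNST arrays, with 1 low tumour in each group.

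Over the 8 companion lists together, 1 of 90 genes passed limma's adjusted p, which is 1.11%, near the 0.903% of all probe sets. At an unadjusted p under 0.05 there were 18 of the 90, or 20.0%, against 15.2% of all probe sets. Groups did not overlap for 16 higher and 8 lower genes, or 17.8% and 8.89%, against 13.2% and 9.34% of all probe sets. Without SRBCT 3, 5 of the 90 passed (5.56%, against 7.35% of all probe sets): ctnna1, cd9b, snai1a and fn1b fell and zeb2a rose.

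Markers of other tissues differed among the arrays. Only the ovary list held genes past limma's adjusted p, where 0.903% of all probe sets passed. None of the skin, liver, or intestine and pancreas markers did. Skin markers were measured for 16 of 20 listed genes, and the log2 of their summed linear levels was 10.79 to 13.17 on the SRBCT arrays and 13.34 to 13.73 on the MPNST arrays. None of the 16 passed limma's adjusted p, and 1 was higher and 2 were lower at an unadjusted p under 0.05. Of all probe sets 15.2% had such an unadjusted p, in either direction. Of the 16 differences 12 were above 0, with a median of 0.35. The groups did not overlap for 4 genes higher and 2 lower in SRBCT, against 13.2% and 9.34% of all probe sets. The sum, which was lower in SRBCT, is carried by a few bright genes. One is icn, given above, and another is s100v2, a skin S100 gene, at 6.36, 8.22 and 10.95 on the SRBCT arrays against 12.22, 12.34 and 11.95 on the MPNST arrays. Also bright was anxa1a, an annexin gene with the smallest p of the list. It was at 8.57, 9.71 and 8.75 on the SRBCT arrays against 11.76, 10.69 and 10.92 on the MPNST arrays (difference -2.11, SE 0.42, limma adjusted p 0.109). Like epcam, anxa1a was low on all 3 SRBCT arrays and highest on MPNST 1. On SRBCT 2, where krt5 was high, 3 of the 16 skin markers lay over 1 unit above their own 6-array means. Of these, the skin claudin gene cldni and icn2 were named after their values were seen. cldni was at 6.92, against 3.02 and 3.29 on SRBCT 1 and 3 and 3.08 to 3.41 on the MPNST arrays. icn2 was at 6.76 against 4.15 to 4.80 on the other 5 arrays. The bright icn and s100v2 were below their means of 11.5 and 10.34 on SRBCT 2, at 10.38 and 8.22. The median skin marker was 0.17 above its 6-array mean on SRBCT 2 and 0.198 above it on SRBCT 3. Of the 16 skin markers 10 were dim. Ovary markers, 16 of 20 listed, had summed levels of 8.58 to 9.44 on the SRBCT arrays and 13.13 to 14.86 on the MPNST arrays, the same direction as epcam. In limma's fit 10 of the 16 were lower at an adjusted p under 0.05, where 0.813% of all probe sets were. That count was 0 without SRBCT 1, 4 without SRBCT 2, 12 without SRBCT 3, 11 without MPNST 1, 1 without MPNST 2 and 3 without MPNST 3. Of all probe sets 0.168%, 0.703%, 7.35%, 0.697%, 0.245% and 0.368% passed in those fits, in that order and either direction. Liver markers, 18 of 26 listed, had summed levels of 8.85 to 10.51 in SRBCT and 9.99 to 14.75 in MPNST, with the median marker 4.31 above its mean on MPNST 1, the array with the highest epcam. Without MPNST 1 the epcam difference was -2.80. Intestine and pancreas markers, 25 of 34 listed, had summed levels of 9.59 to 14.78 in SRBCT and 9.57 to 11.49 in MPNST. The median marker was 2.75 above its mean on SRBCT 3, the SRBCT array with high krt8, krt18b and jupa. On MPNST 1, 2 and 3, where krt8 and krt18b were high as well, that median was at 0.11, -0.845 and -0.978. The pancreatic enzyme gene prss1, named after its values were seen, was at 11.99 on SRBCT 3, against 4.85 to 8.79 on the other 5 arrays. Intestinal genes, also named after their values were seen, were mixed. fabp2 was highest on SRBCT 3, at 6.14. fabp6 was at 11.28 on SRBCT 1, the array with the lowest krt8 and krt18b, and at 11.10 on SRBCT 3. It was at 3.58 on SRBCT 2 and 3.27 to 3.41 on the MPNST arrays. vil1 was dim, at 3.31, 3.0 and 3.17 on the SRBCT arrays against 2.23 to 2.34 on the MPNST arrays. The deposited values hold no zeros, so no marker can be called absent. The part of skin, ovary, liver, gut or pancreas tissue in the epcam, krt5 and simple keratin values was not tested.

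**Figure D3:**
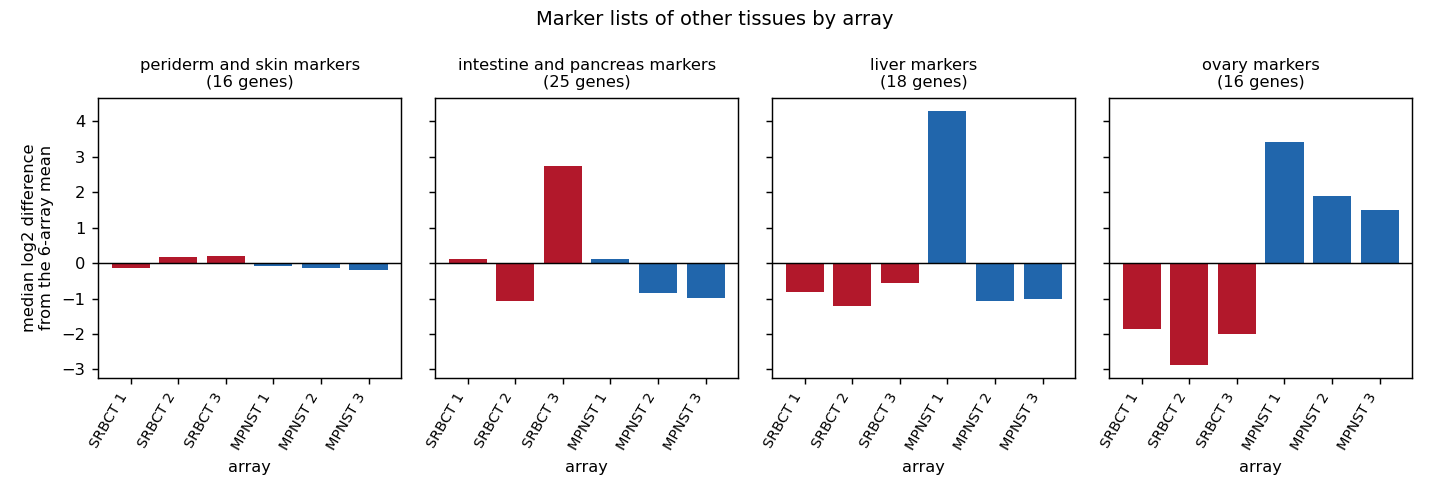
Median log2 difference from the 6-array mean (vertical axis) of the measured skin, intestine and pancreas, liver, and ovary markers on each array, SRBCT (red) left of MPNST (blue). Ovary markers are 1.86 to 2.88 below their means on the SRBCT arrays and 1.49 to 3.42 above them on the MPNST arrays. The median of the intestine and pancreas list peaks on SRBCT 3 and that of the liver list on MPNST 1.

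The genes whose values followed each member most closely over the 6 arrays were ranked by Pearson's r among 4254 probe sets with a named gene and an SD of at least 0.5. For epcam they were dynll2b (0.997), rdh10b (0.995) and ifi44f1 (0.992). dynll2b, a dynein light chain gene, was at 4.69, 6.14 and 4.89 on the SRBCT arrays against 8.75, 7.93 and 7.94 on the MPNST arrays. For pkp3a they were ahsa1a (0.979), olfm2a (0.977) and rnps1 (0.976). For jupa they were mef2aa (0.999), adipor2 (0.991) and col15a1b (0.988). krt8 was followed by bcar1 (0.997), rassf1 (0.993) and znf503 (0.993), and krt18b by tmem134 (0.998), rgmd (0.996) and pdcd6 (0.995). None of these 15 genes is a keratin or a desmosome gene. znf503, a zinc finger gene, showed the simple keratin pattern at a large range, at 4.86, 5.06 and 9.81 on the SRBCT arrays against 9.45, 9.21 and 9.48 on the MPNST arrays. krt4 was followed by fhl1b (0.992), ginm1 (0.987) and prkag2a (0.986). For krt5 they were zic1 (0.995), the fast muscle myosin light chain gene mylpfa (0.994) and the keratin gene krt1-19d (0.994). zic1, a zinc finger gene of dorsal neural tissue, was at 3.33, 6.68 and 3.63 on the SRBCT arrays against 3.22, 3.27 and 3.18 on the MPNST arrays. With 6 arrays and so many candidates such values are a description of which arrays are high, and nothing is said of shared control.

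Leaving out single arrays changed the members by different amounts. The difference of epcam ranged from -3.45 to -2.80 over the 6 fits that left out 1 array, and that of pkp3a from 2.22 to 2.60. krt8 was at -2.71 without SRBCT 3 and between -1.83 and -1.08 in the 5 other fits, krt18b at -4.22 against -3.0 to -1.83, and jupa at -1.81 against -1.07 to -0.51. krt4 ranged from -1.65 to -0.92 and krt5 from 0.55 to 3.52. No member changed sign in these fits. Without SRBCT 3, 5 of the 7 genes passed limma's adjusted p, where 7.35% of all probe sets did: epcam, jupa, krt8 and krt18b were lower and pkp3a higher. Without SRBCT 2 only epcam passed (0.703% of all probe sets) and without MPNST 1 only pkp3a (0.697%). Without SRBCT 1, MPNST 2 or MPNST 3 none passed by limma, where 0.168%, 0.245% and 0.368% of all probe sets did. In those 3 fits 3, 2 and 3 members had an unadjusted p under 0.05, against 9.71%, 9.98% and 11.3% of all probe sets. krt4 and krt5 passed in none of the 6. Because the genes were chosen with this comparison known, nothing is read from these counts of members either. SRBCT 3 was the array that sat with the MPNST arrays for jupa, krt8 and krt18b, so leaving it out separates the groups for these genes.

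**Figure D4:**
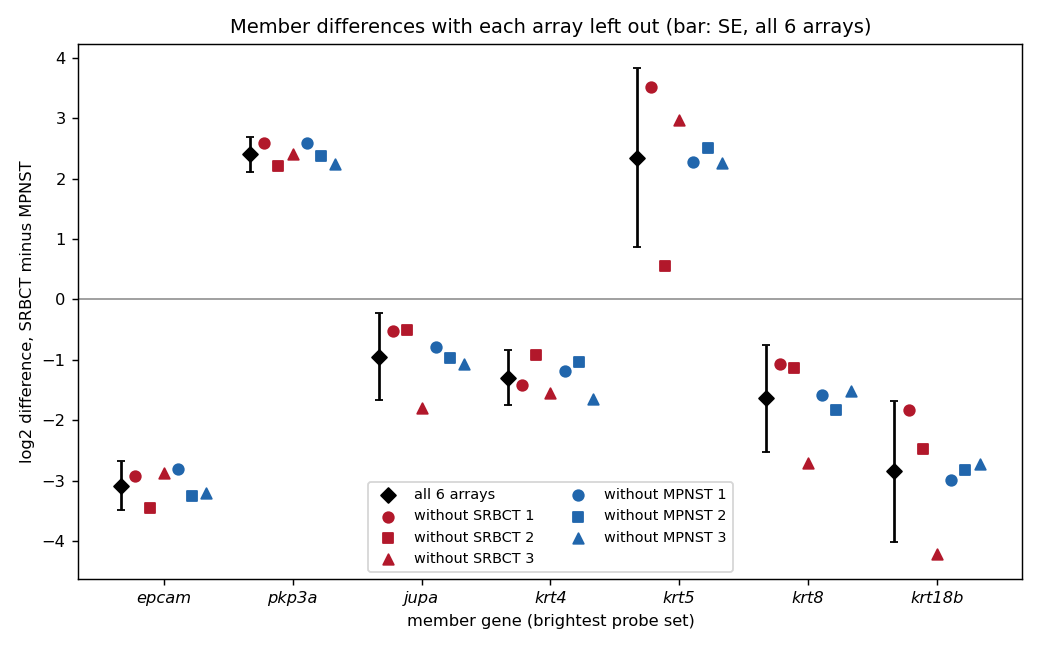
Log2 difference, SRBCT minus MPNST (vertical axis), of the 7 member genes with all 6 arrays (black, bar for the SE) and without each SRBCT (red) or MPNST (blue) array. epcam and pkp3a stay between -3.45 and -2.80 and between 2.22 and 2.60, krt5 drops to 0.55 without SRBCT 2, and jupa, krt8 and krt18b are lowest without SRBCT 3.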

How the data were processed

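Tumour RNA was hybridized to Affymetrix zebrafish arrays, on which several short probes form a probe set. Each deposited value is a log2 level. Per the submitters' processing notes the authors used RMA, the affy package and R 2.2.0. Base 2 was inferred, as RMA writes it and as values between 1.86 and 13.88 allow, and other upstream settings are not given in the sources used here. Of 15617 probe sets 115 controls were left out. Symbols came from the platform annotation, updated through Entrez identifiers to RefSeq (GRCz12tu): 10795 probe sets had 1 symbol, 135 several and 4572 none here, and only those with 1 were named. The brightest probe set on average stood for a gene. Some probe sets are named as ones that may match several transcripts or other sequences. Among them are those of jupa, krt91, icn, icn2 and cldn7b, and the dim one of epcam. limma 3.58.1 in R 4.3.3 (lmFit, eBayes) compared SRBCT with MPNST over all 6 arrays without covariates. Benjamini-Hochberg adjustment ran over 15502 probe sets, with a threshold of 0.05. The fit was also run on simulated data with noise drawn independently for each probe set. That simulation says nothing of shifts shared by a whole array, such as those of SRBCT 3. Precision is limited by 3 arrays a group, which the titles call biological replicates.

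The members and the lists were chosen with earlier results of these data known. The naming rule took all member probe sets, up to 4 called genes of each companion list or otherwise the 2 with the smallest p, and the 3 genes most correlated with each member. Genes marked as named after their values were seen fall outside this rule. The genes named from the marker lists of other tissues also fall outside it. Alternatives were median centring, cyclic loess, no dim probe sets, a trended and robust variance, the replicate block, each array left out and gene means over probe sets. Same-numbered arrays are different fish, and their deviations from group means correlated at 0.063, 0.070 and -0.046, so numbers did not pair them.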

Additional observations from a re-analysis of the deposited data

How the results depend on the processing

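The count of changed probe sets, 140 with all arrays, was 88 with the replicate block and 26 to 1140 with 1 array left out: 26 without SRBCT 1, 38 without MPNST 2, 57 without MPNST 3 and 1140 without SRBCT 3. The cause was not tested. With centring, cyclic loess, no dim probe sets or the trended variance it stayed within 1.5 times, at 108 to 204. The count of changed companion genes was 1, and 0 to 5 with 1 array left out: 5 without SRBCT 3, and 0 without MPNST 1 or MPNST 2, where 11 of 90 (12.2%) had an unadjusted p under 0.05 in each fit, against 10% and 9.98% of all probe sets. No member difference changed sign under any of these alternatives. With gene means over probe sets the epcam difference was -1.70, since its dim probe set then counts equally. Among members, epcam alone passed with cyclic loess, and no member with the replicate block, which has fewer residual degrees of freedom, while 3 of 7 had an unadjusted p under 0.05 there, against 14.2% of all probe sets. As the members were chosen with this comparison known, nothing is read from these member counts. Without dim probe sets, pkp3a and krt5 were not tested. Dim signals, which RMA compresses, limit what can be seen for most other desmosome genes.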
